A study of Rattus norvegicus with 6 samples.

Results

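A set of 9 genes of the epithelial cell surface is described here in INS-1 cells, a rat insulinoma line used as a model of the beta cell, that carried 1 of 2 menin mutants. The genes are Vil1, Ezr, Slc9a3r1 and Pdzk1 of the brush border and its scaffolds, the membrane mucins Muc1 and Muc13, and the surface genes Epcam, Upk3bl and Perp. They are 9 of the 35362 gene rows in the deposited table, each found by its exact symbol. They were chosen by their RPKM in S487D against S487A, the same contrast reported below, so their differences are given as a description without a test. RPKM is a read count scaled to gene length in kilobases and to the library's total of assigned reads. The study concerns phosphorylation of menin, the product of Men1, downstream of the incretin GLP-1.

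The S487A group held 3 libraries of cells transduced with a retrovirus for Flag-tagged menin with alanine, a residue that takes no phosphate, in place of a serine. The S487D group held 3 libraries of cells made the same way with aspartate in that place, an acidic residue often used to stand in for a phosphorylated serine. All libraries came from cells at passages 75 to 80 and carried the pMX-puro construct. Men1 was read at 71.2, 76.7 and 75.0 RPKM in S487A and at 113, 103 and 119 in S487D, higher in all S487D libraries. The row does not show which mutant a library carries, nor does it separate the cells' own Men1 from the transgene. The species of the transgene is not in the labels, so how far its reads count in this row is not known. The part of the menin level in the differences below was not tested. Whether the 3 libraries of a mutant were grown or transduced separately is not in the labels, so p-values measure only the spread between these libraries, which may be technical, and the mutant cannot be told apart from the cell population that carries it. Cells without a transgene or with wild-type menin were not analysed here, so every difference is S487D relative to S487A.

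Assigned reads ran from 9444801 to 10867549 per library. Ribosomal RNA took 0.930 to 2.49% of reads in S487A and 2.15 to 4.50% in S487D, and its part in the results below was not tested. Of 12527 genes tested with limma, 20.1% were called higher and 24.3% lower in S487D at an adjusted p under 0.05. Higher calls made up 45.3% of all calls, 55.4% with quantile-normalized values and 58.9% when library medians were set equal. All 10 beta cell markers were detected, and their summed level was 8814 to 9435 RPKM in S487A and 20897 to 22044 in S487D. Most of that difference was Ins1, an insulin gene, at 4683 and 16700 RPKM; 7 of the markers were called higher and 3 lower, namely Nkx6-1, Chga and Neurod1.

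Microvilli are finger-like projections of the apical membrane, packed side by side as the brush border of gut and kidney epithelia. Villin bundles, caps and severs their actin filaments, ezrin ties the filaments to the membrane, and PDZ-domain scaffolds anchor transporters and channels to ezrin. Membrane mucins are heavily O-glycosylated proteins that extend beyond the microvilli, and EpCAM, uroplakins and PERP belong to the surfaces or junctions of epithelial cells. Pancreatic endocrine cells arise from an epithelium, and EpCAM is a known surface protein of islet cells.

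The set was lower in S487D for 7 of 9 genes and higher for 2, with very unequal sizes. Muc13, Vil1, Muc1, Perp and Slc9a3r1 were lower by more than 2-fold, and Ezr and Epcam were lower by less than 1.2-fold. Pdzk1 was slightly higher, and Upk3bl was read only in S487D. The groups did not overlap for any of the 9 genes, which was also so for 54.6% of the genes tested. An S487A mean at least 2 times the S487D mean was found for 5 of the 9 genes and for 3.57% of the genes tested. These counts follow from how the genes were chosen. The 9 RPKM values summed to 635 to 653 in S487A libraries and to 362 to 368 in S487D libraries. In bulk RNA, fewer cells with a transcript and less of it per cell cannot be told apart.

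**Figure D1:**
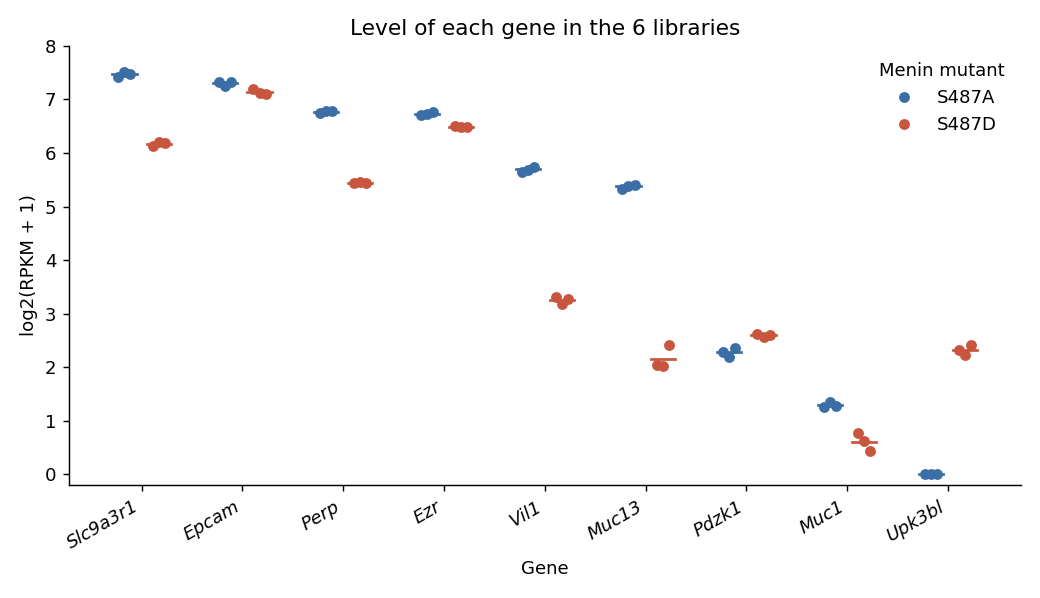
Level of each gene, as log2(RPKM + 1) on the vertical axis, in the 3 S487A and the 3 S487D libraries, with genes on the horizontal axis ordered by their mean in S487A. Points are libraries and short lines are group means; Muc13 and Vil1 sit far lower in S487D, Ezr and Epcam nearly level, and Upk3bl at 0 in all S487A libraries.

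Villin, encoded by Vil1, is the actin-bundling protein that gives the brush border core its order. Vil1, on chromosome 9 from 81689802 to 81717623 (rn6, plus strand), was read at 49.0, 50.7 and 52.5 RPKM in S487A and at 8.89, 8.11 and 8.72 in S487D. All S487A libraries were high and all S487D libraries low, with a gap of 40.1 RPKM between the groups. The means were 50.7 ± 1.8 and 8.57 ± 0.41 RPKM (SD, n = 3), so S487D held 16.9% of the S487A level. Reads numbered 1625 to 1819 per library in S487A and 255 to 301 in S487D. Among all gene rows, Vil1 ranked 1789th in S487A and 7158th in S487D.

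Ezrin, encoded by Ezr, links actin to the plasma membrane and is the ERM protein (ezrin, radixin, moesin) of epithelial microvilli. Ezr, on chromosome 1 from 47287872 to 47331412 (minus strand), was read at 104, 104 and 108 RPKM in S487A and at 89.8, 88.5 and 88.7 in S487D. The libraries of each group lay close together, and the S487D libraries were all the lower ones. The means of 105 ± 2.0 and 89.0 ± 0.69 RPKM differ by -0.24 on the log2(RPKM + 1) scale (SE 0.036).

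NHERF1, encoded by Slc9a3r1, is a PDZ scaffold that binds ezrin with its C-terminus and holds transporters, channels and receptors at the apical membrane. Slc9a3r1, on chromosome 10 from 103713045 to 103730145 (plus strand), was read at 170, 182 and 177 RPKM in S487A and at 68.6, 73.1 and 71.4 in S487D. It was the most abundant gene of the set in S487A, and stood below Epcam and Ezr in S487D. The means were 176 ± 5.6 and 71.0 ± 2.2 RPKM, or 40.3% of the S487A level in S487D. A further row, LOC103693478 on the opposite strand, overlaps Slc9a3r1 but held at most 8 reads in a library.

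PDZK1, a related scaffold with several PDZ domains, also holds apical transporters in kidney and gut. Pdzk1, on chromosome 2 from 198965685 to 198999323 (plus strand), was read at 3.87, 3.53 and 4.13 RPKM in S487A and at 5.17, 4.93 and 5.08 in S487D. S487D was higher by 1.32-fold on the RPKM scale, opposite to Slc9a3r1. With 76 to 84 reads per library in S487A and 93 to 105 in S487D, the counting intervals of single libraries overlap: 3.29 to 5.11 RPKM for the highest S487A library and 3.98 to 6.04 for the lowest S487D library (exact Poisson 95% intervals, which cover counting error only).

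Muc13 is a membrane mucin of gut epithelium with a large O-glycosylated outer domain. Muc13, on chromosome 11 from 70185757 to 70223012 (minus strand), was read at 39.3, 40.8 and 41.5 RPKM in S487A and at 3.12, 3.06 and 4.31 in S487D. All S487A libraries were high, and S487D replicate 3 stood above the other S487D libraries while remaining far below S487A. The means were 40.5 ± 1.1 and 3.50 ± 0.70 RPKM, an 11.6-fold difference and the largest ratio among the 8 genes read in both groups. The S487D values rest on 81 to 113 reads per library.

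Muc1 is the membrane mucin of ductal and glandular epithelia. Muc1, on chromosome 2 from 188542691 to 188547874 (plus strand), was read at 1.38, 1.54 and 1.41 RPKM in S487A and at 0.710, 0.535 and 0.347 in S487D. All S487D libraries were below all S487A libraries, and the spread within S487D was wide, with a coefficient of variation of 34.2%. The means of 1.44 ± 0.085 and 0.530 ± 0.18 RPKM give a ratio of 2.72. On the log2(RPKM + 1) scale the difference was -0.68, against -1.33 with a pseudocount of 0.1, since adding 1 compresses such low values. The S487D libraries held 20, 14 and 9 reads, and 9 reads allow 4.12 to 17.1 (exact Poisson 95% interval). Muc1 passed the filter of 1 RPKM in 3 libraries through S487A alone.

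EpCAM is a homophilic adhesion glycoprotein on the surface of simple epithelia. Epcam, on chromosome 6 from 11282194 to 11298156 (minus strand), was read at 160, 152 and 160 RPKM in S487A and at 145, 139 and 137 in S487D. The groups were separated by 7.11 RPKM, less than the range of either group. The means were 158 ± 4.6 and 140 ± 4.4 RPKM, a log2 difference of -0.17 (SE 0.040), which ran from -0.23 after quantile normalization to -0.11 after median centring. Epcam was the most abundant gene of the set in S487D.

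Upk3bl encodes a uroplakin-like membrane protein, a relative of the plaque proteins of bladder epithelium. Upk3bl, on chromosome 12 from 23654996 to 23661009 (minus strand), was read at 0 in all 3 S487A libraries and at 4.0, 3.66 and 4.34 RPKM in S487D, from 40, 34 and 40 reads. No read was counted in S487A, where the floor of 3 reads per library stands for 0.283 to 0.307 RPKM. Against the mean of these floors, S487D was at least 13.5-fold higher. Upk3bl passed the filter through S487D alone.

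PERP is a tetraspan protein of desmosomes, the junctions that anchor keratin filaments, and its gene is a known target of p53. Perp, on chromosome 1 from 14224392 to 14236838 (plus strand), was read at 107, 109 and 110 RPKM in S487A and at 42.3, 42.8 and 42.4 in S487D. The libraries within each group agreed more closely than for any other gene of the set, with a coefficient of variation of 1.46% in S487A and 0.637% in S487D. The means were 108 ± 1.6 and 42.5 ± 0.27 RPKM, or 39.2% of the S487A level in S487D.

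Since RPKM is per length, levels can be ordered between genes. In S487A the order was Slc9a3r1, Epcam, Perp, Ezr, Vil1, Muc13, Pdzk1, Muc1 and Upk3bl, and only Perp and Ezr had overlapping libraries. In S487D it was Epcam, Ezr, Slc9a3r1, Perp, Vil1, Pdzk1, Upk3bl, Muc13 and Muc1, and only Upk3bl and Muc13 overlapped. Muc13 was thus above Pdzk1 in S487A and below it in S487D.

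Ratios between genes of 1 library do not depend on how that library was scaled. Slc9a3r1 stood at 1.64 to 1.74 times Ezr, its binding partner, in S487A and at 0.764 to 0.825 times Ezr in S487D. Vil1 stood at 0.471 to 0.488 of Ezr in S487A and at 0.0916 to 0.0990 in S487D. The scaffold and the actin bundler were thus each lower relative to ezrin. Epcam over Ezr was 1.496 ± 0.043 in S487A and 1.58 ± 0.037 in S487D (SD, n = 3). Its ranges nearly met, ending at 1.543 in S487A and starting at 1.544 in S487D. Perp over Epcam went from 0.688 ± 0.025 to 0.303 ± 0.010.

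**Figure D2:**
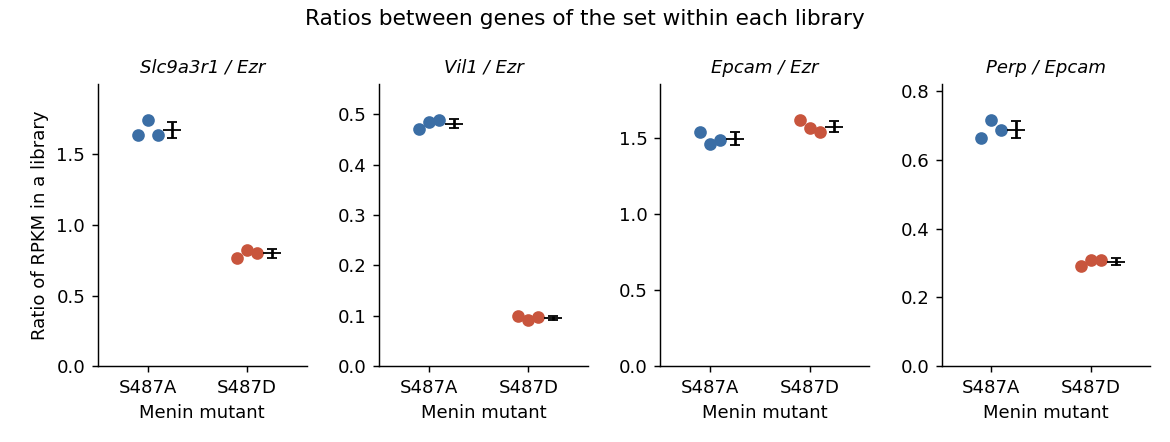
Ratio of 2 genes' RPKM within each library on the vertical axis, starting at 0, by menin mutant on the horizontal axis, with the mean and SD beside the 3 libraries. Slc9a3r1 and Vil1 relative to Ezr, and Perp relative to Epcam, separate the mutants widely, while Epcam relative to Ezr differs little.

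The promoters of 3 genes lower in S487D, Vil1, Slc9a3r1 (listed as Nherf1) and Perp, are shown beside that of Epcam, whose level differed little, so that their letters can be compared. Each is the 250 bases before the RefSeq start on GRCr8, a build later than that of the data: chr9:83439998-83440247 (plus strand), chr10:100901915-100902164 (plus), chr1:15361534-15361783 (plus) and chr6:12649679-12649928 (minus). Capitals mark matches, on either strand, to 6 motifs described after the sequences.
Vil1: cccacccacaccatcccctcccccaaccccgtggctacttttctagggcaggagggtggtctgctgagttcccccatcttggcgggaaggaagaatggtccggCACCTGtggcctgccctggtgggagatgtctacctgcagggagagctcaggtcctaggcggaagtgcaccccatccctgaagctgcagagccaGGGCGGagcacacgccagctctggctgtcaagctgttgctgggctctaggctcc
Slc9a3r1: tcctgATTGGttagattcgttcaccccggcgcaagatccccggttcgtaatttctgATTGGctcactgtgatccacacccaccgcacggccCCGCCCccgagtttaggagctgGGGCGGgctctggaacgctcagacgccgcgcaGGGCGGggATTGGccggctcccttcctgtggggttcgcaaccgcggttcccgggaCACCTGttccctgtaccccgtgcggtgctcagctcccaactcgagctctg
Perp: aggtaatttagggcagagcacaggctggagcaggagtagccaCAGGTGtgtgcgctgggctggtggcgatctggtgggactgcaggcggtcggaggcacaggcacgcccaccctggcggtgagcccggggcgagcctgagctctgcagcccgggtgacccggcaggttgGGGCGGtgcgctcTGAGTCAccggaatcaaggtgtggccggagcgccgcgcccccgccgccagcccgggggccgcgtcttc
Epcam: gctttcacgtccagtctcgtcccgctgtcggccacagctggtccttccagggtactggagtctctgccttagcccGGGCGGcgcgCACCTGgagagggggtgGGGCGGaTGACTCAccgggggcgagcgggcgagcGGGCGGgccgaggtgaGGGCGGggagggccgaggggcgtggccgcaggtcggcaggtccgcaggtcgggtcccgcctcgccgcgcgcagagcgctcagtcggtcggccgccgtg

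Of the 9 genes, 8 matched an entry of the RefSeq promoter table. The Muc13 and Muc1 entries start 4367 and 438 bases inside the RefSeq gene and are not shown, though they count among the 8. The motifs were the GC box GGGCGG, the CCAAT box CCAAT, the TATA box TATAAA, the AP-1 site TGANTCA, the E-box CACCTG bound by ZEB and SNAI repressors, and the p53 half-site by its usual consensus. None of them overlapped another in the sequences shown. The GC box was present in 6 of 8 entries, and in 30.5% of all 33469 promoters of this length. The E-box was present in 5 of 8 entries, namely Vil1, Slc9a3r1, Perp, Muc1 and Epcam, and in 15.9% of all promoters. Perp and Epcam each held an AP-1 match, found in 6.34% of promoters. A CCAAT box was present in 5 of 8 entries against 34.0% of promoters, with 3 copies in Slc9a3r1, and a TATA box in Muc1 alone against 12.9%. No entry held the p53 half-site in these 250 bases, against 6.64% of promoters. The 4 sequences shown are 64.0 to 75.6% G and C, above the median promoter at 51.2%, and the part of base composition in these matches was not tested. A match of letters does not show a bound site.

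The chromosomal surroundings of the genes were described by the 10 tested genes nearest on each side. Around Vil1, Muc13 and Upk3bl, none of the 20 neighbours differed by as much as the gene itself, and their median log2 differences were -0.05, 0.02 and 0.02. The genes of the set were chosen by this same contrast and their neighbours were not, so standing apart follows in part from the choice. The size for Upk3bl also depends on the pseudocount. Usp37, 2 bases beyond the Vil1 row on the other strand, differed by -0.20. The surroundings of Slc9a3r1 were different. Of its 10 neighbours on the lower-coordinate side 9 were called lower and 1 higher, with a median of -0.92, whereas on the other side 2 were lower and 3 higher, with a median of 0.09. This split by side was read after the values were seen. The row that ends 1214 bases before Slc9a3r1 on the same strand, LOC100364984 (Rab37 in RefSeq), fell from 86.5 ± 1.8 to 39.3 ± 0.75 RPKM (limma adjusted p = 4.54e-08). Nat9, 69 bases beyond Slc9a3r1, passed no test (log2 difference 0.11). Whether reads of the Rab37 row and Slc9a3r1 mix was not tested. Around Perp, 1 of 20 neighbours differed by more than Perp, and their median was -0.04. Around Muc1 1 of 20 and around Pdzk1 5 of 20 neighbours differed by more than the gene itself. Around Epcam 11 of 20 and around Ezr 7 of 20 did so.

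**Figure D3:**
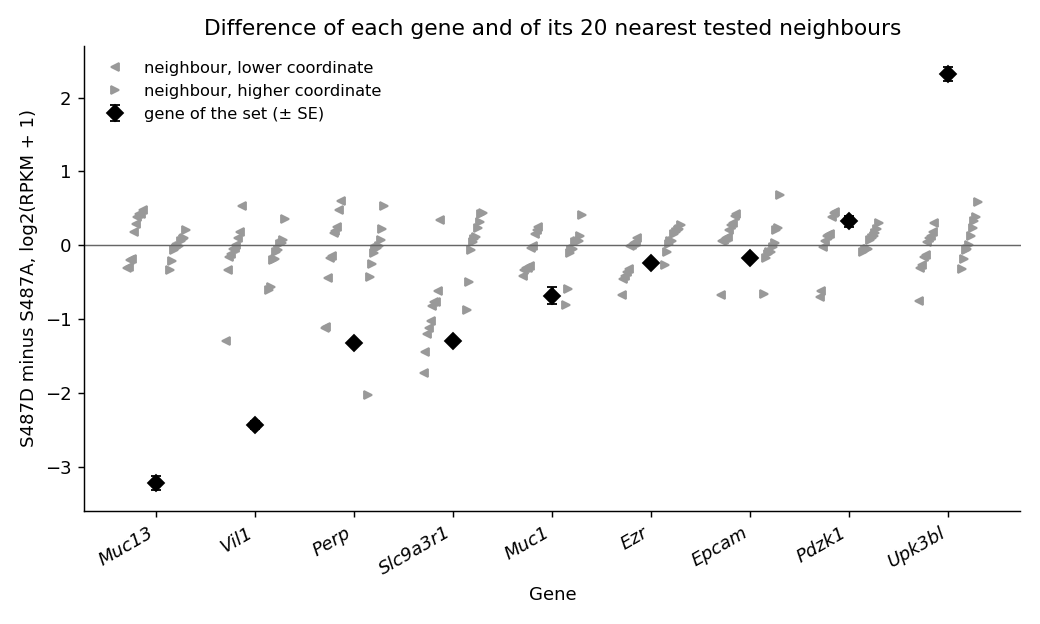
S487D minus S487A on the log2(RPKM + 1) scale (vertical axis) for each gene of the set (diamonds, ± SE) and for its 10 nearest tested neighbours on each side (triangles), with genes on the horizontal axis from lowest to highest. Muc13, Vil1 and Upk3bl (whose plotted size depends on the pseudocount) lie outside their neighbours, and Slc9a3r1 lies among lowered neighbours on its lower-coordinate side. The genes of the set, unlike their neighbours, were chosen by this contrast.

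Genes with the most similar profile were named by the smallest root mean square difference of centred log2(RPKM + 1) over the 6 libraries. This likeness mostly reflects the size of the group difference. The closest to Slc9a3r1 was Perp, another gene of the set, at 0.033, followed by Vwa5b1, and the closest to Perp was Tmem86a at 0.030, followed by Slc9a3r1. Within 0.1 of Slc9a3r1 and Perp lay 43 and 49 genes, and both genes were chosen by the same contrast. Vil1 was closest to Mslnl (0.076), with means of 76.8 RPKM (S487A) and 12.1 RPKM (S487D), and to Mybph (0.078). Muc13 was closest to Rnd1 (0.14) and Serpina1 (0.16), and no gene came within 0.1 of it. Upk3bl, at 0 in S487A, was closest to Stc1 (0.081), with means of 8.40 RPKM (S487A) and 42.8 RPKM (S487D), and to Wnt4 (0.089). Likeness was computed with a pseudocount of 1 only. Adding 1 compresses low values such as those of Upk3bl and Muc1, so genes with unlike RPKM ratios can match. For Ezr and Epcam, 2483 and 3244 genes came within 0.1, so their nearest genes, Hsdl1 and Fam92b for Ezr and Krba1 and Ywhah for Epcam, are a few of very many. The nearest to Pdzk1 were Fam203a and Atp8a1, and to Muc1 Pex5l and Slc26a8, with 1539 and 86 genes within 0.1.

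Other genes of the brush border core fell more often than they rose. Myo7b, a myosin of the links between microvillus tips, had means of 3.82 ± 0.50 (S487A) and 0.555 ± 0.038 RPKM (S487D); it passed the filter through S487A alone, so its call carries no weight of its own. Myo6, a myosin that walks toward the base of microvilli, fell from 11.5 ± 0.31 to 4.39 ± 0.17 RPKM (log2 difference -1.21, limma adjusted p = 4.38e-07), and the membrane-linking myosin Myo1e fell from 5.33 ± 0.79 to 1.83 ± 0.11. Pdzk1ip1, a small membrane protein that binds PDZK1, rose from 589 ± 28 to 1097 ± 8.8 RPKM (log2 difference 0.90, adjusted p = 3.67e-07). Anks4b, a scaffold of the tip links, rose 1.22-fold and the myosin Myo1c rose 1.20-fold. Of 43 listed genes, all were found and 26 passed the filter. Of these, 14 fell, Myo7b among them, 5 rose and 7 passed no test. The median log2 difference was -0.21 against -0.01 over all genes tested. Lower calls took 53.8% of the tested genes of this list and 24.3% of all genes tested, and higher calls 19.2% and 20.1%. The shares over all genes are the comparison for the lists below too. This list and those below were chosen with earlier results of these data known. The Myo7b, Myo1e and Anks4b rows overlap other rows, and without strand information their reads cannot be assigned to 1 gene with certainty.

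The closest relatives of ezrin, NHERF1 and villin did not move alike; they are named for that relation, outside the rule for named genes and after their values were seen. Radixin (Rdx) was read at 19.4 ± 0.80 and 18.2 ± 1.3 RPKM in S487A and S487D (adjusted p = 0.264), and moesin (Msn) fell from 1.98 ± 0.46 to 1.21 ± 0.083. NF2, the ERM-related protein merlin, rose from 40.5 ± 0.51 to 47.9 ± 0.38 RPKM. Slc9a3r2, the second NHERF scaffold, was read at 3.29 ± 0.33 and 3.65 ± 0.55 RPKM (adjusted p = 0.403), far below Slc9a3r1 in both groups. Gsn, which encodes gelsolin of the villin family, fell from 82.4 ± 1.6 to 48.0 ± 1.5 RPKM. Of the other villin family members listed, Flii was read at 49.2 ± 1.6 and 49.7 ± 1.2 RPKM (adjusted p = 0.789), Avil and Vill stayed below the filter, and Scin was at 0 in every library.

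Few enzyme and transporter genes of the enterocyte brush border reached the filter of 1 RPKM. Of 33 listed genes 32 were found, 25 of them below the filter and 7 of these 25 at 0 in every library, among them the intestinal phosphatase gene Alpi. Of the 7 tested, 4 fell, 1 rose and 2 passed no test (median log2 difference -0.26). Alpl, the tissue-nonspecific alkaline phosphatase gene, fell from 16.3 ± 1.0 to 7.91 ± 0.34 RPKM, Lct, which encodes lactase, from 5.40 ± 0.46 to 2.49 ± 0.30, and Anpep, aminopeptidase N, from 6.22 ± 0.20 to 3.24 ± 0.48. Ggt1, a glutathione-cleaving surface enzyme gene, had means of 0.208 ± 0.039 (S487A) and 2.40 ± 0.65 RPKM (S487D). It is the only called rise of this list and passed the filter through S487D alone, so its call carries no weight of its own. With no filter on low values, 7 genes fell and 2 rose; with a filter at RPKM 5, none rose.

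Apart from Muc1 and Muc13, no mucin gene with a Muc symbol that was found passed the filter. The membrane mucins Muc3a, Muc12 and Muc17 had no matching row, so their levels are not known here. The genes tested in the mucin list are thus mostly O-glycan enzymes. C1galt1, the galactosyltransferase that builds the core 1 O-glycan, fell from 49.1 ± 4.7 to 13.3 ± 0.97 RPKM (log2 difference -1.81, adjusted p = 1.35e-07). C1galt1c1, its chaperone, was read at 20.3 and 23.1 RPKM and passed no test (log2 difference 0.20); it is named outside the rule, after its value was seen. The sialomucin gene Cd164 fell from 325 ± 23 to 186 ± 6.6 RPKM, in surroundings on chromosome 20 where 14 of 20 neighbours also fell (median -0.41). Gcnt2, a branching enzyme gene, fell 1.45-fold. St3gal1, which sialylates core 1 glycans, rose from 12.9 ± 0.58 to 25.4 ± 1.4 RPKM (adjusted p = 1.97e-06). Of 44 listed genes 40 were found and 14 tested; 7 fell, 1 rose and 6 passed no test (median log2 difference -0.17). A second rise was counted after median centring, with voom on recovered reads, and without S487A replicate 1.

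Among other epithelial surface and desmosome genes, Ppl, which encodes the cytolinker periplakin, fell from 27.0 ± 0.80 to 16.1 ± 0.57 RPKM (adjusted p = 3.53e-06). St14, the membrane protease matriptase, fell from 147 ± 5.1 to 103 ± 2.2 RPKM, and Spint1, a matriptase inhibitor gene, fell from 64.8 ± 1.3 to 40.7 ± 2.5. Spint2, a related inhibitor gene named outside the rule and after its values were seen, was read at 460 ± 8.5 and 469 ± 11 RPKM and passed no test. Upk3a, a bladder uroplakin gene, rose from 1.28 ± 0.31 to 2.82 ± 0.94 RPKM (adjusted p = 0.00804), and the junctional plakophilin Pkp4 rose 1.16-fold. Of 35 listed genes, all found, 11 were tested; 6 fell, 2 rose and 3 passed no test (median log2 difference -0.20). Pkp4 lost its call when no filter was applied (adjusted p = 0.0570) and on dropping replicate 1 or 2 of S487A, or replicate 1 or 3 of S487D (adjusted p up to 0.0819), leaving 1 rise.

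**Figure D4:**
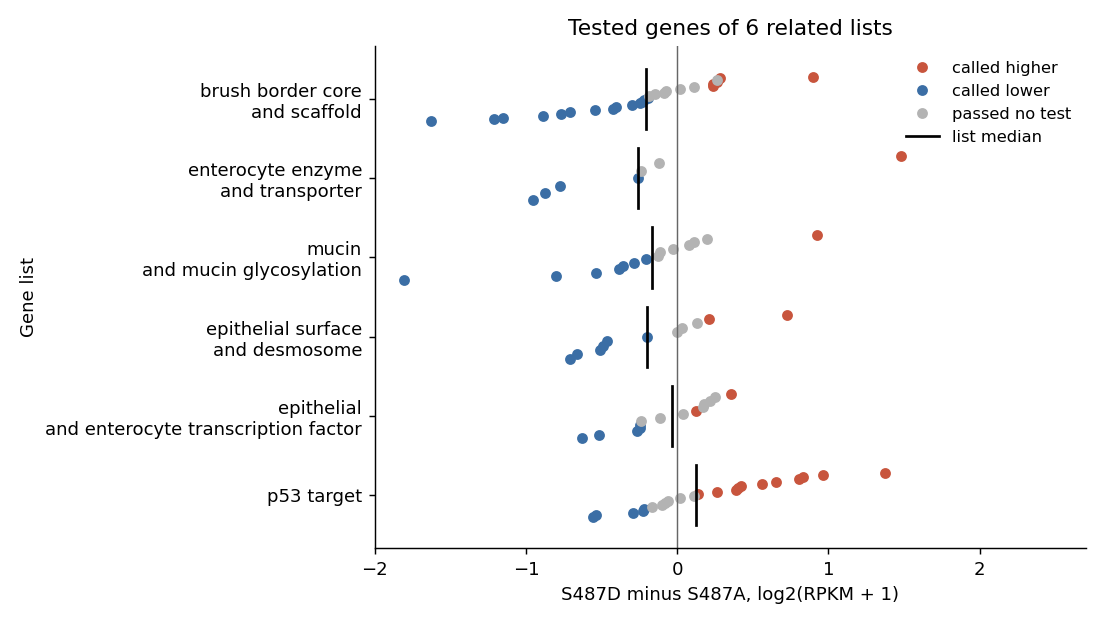
S487D minus S487A on the log2(RPKM + 1) scale (horizontal axis) for the tested genes of 6 gene lists (vertical axis), without the 9 genes of the set; points are genes, coloured by the limma call, and black lines are list medians. Falls outnumber rises in the first 5 lists, by 14 to 5 in the brush border core. The p53 target list holds 11 rises, the p53 gene among them, and 5 falls. Over all genes tested, 24.3% were called lower and 20.1% higher. After quantile normalization the transcription factor list held 6 rises and 5 falls. The lists were chosen with earlier results of these data known.

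Transcription factors of epithelia and enterocytes went both ways. Elf3, an epithelial ETS factor, fell from 89.2 ± 1.4 to 57.2 ± 1.1 RPKM (adjusted p = 1.53e-06) and Gata4, a zinc finger factor, fell 1.20-fold. Klf5 rose 1.28-fold and the splicing regulator Esrp1 1.09-fold. Cdx2, the intestinal homeobox gene, reached at most 0.228 RPKM. Of 25 listed and found genes 14 were tested, of which 5 fell, 2 rose and 7 passed no test. Their median log2 difference was -0.04. The median turned to 0.01 after quantile normalization, 0.02 after median centring and 0.0042 without S487A replicate 3. With a filter at RPKM 5, which tests 8 genes of the list, the median was -0.25, with 5 falls and 1 rise. The count of rises was 6 after quantile normalization, 4 after median centring, and 0 without S487A replicate 2 or S487D replicate 3. It was 1 without S487A replicate 1, S487D replicate 1 or S487D replicate 2.

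Targets of p53, listed because Perp is one of them, rose more often than they fell, opposite to the direction of Perp. Phlda3, an inhibitor of AKT signalling, rose from 16.2 ± 0.73 to 43.7 ± 3.6 RPKM (log2 difference 1.38, adjusted p = 2.94e-07), in a row that overlaps another. Plk2, a polo-like kinase gene, rose from 2.01 ± 0.38 to 4.86 ± 0.56 RPKM, and Cdkn1a, the cell cycle inhibitor p21, rose 1.78-fold. Sesn1, Plk3 and the DNA repair gene Xpc fell by 0.56, 0.53 and 0.30 on the log2 scale; the Sesn1 and Plk3 rows overlap other rows, and 15 of the 20 neighbours of Sesn1 on chromosome 20 fell too. The list had 27 genes, 26 of them found and 22 tested, of which 11 rose, 5 fell and 6 did not pass the test; their median log2 difference was 0.12. The falls numbered 3 with quantile normalization, median centring or no filter, and without S487A replicate 1 or any of the S487D replicates.

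Most markers of other cell types stayed below 1 RPKM, apart from Krt7, Car2, Ctrb1, Pdgfra, Cd74, Lct and Tff3. Of 7 duct markers 5 stayed below 1 RPKM in every library and Spp1 was at 0; their sum went from 210 to 229 RPKM in S487A to 85.2 to 88.7 in S487D, nearly all of it Krt7, a keratin of simple epithelia (217 ± 9.5 and 82.7 ± 2.0 RPKM). The other duct marker tested, the carbonic anhydrase gene Car2, rose from 2.33 ± 0.18 to 4.17 ± 0.32 RPKM. Of 7 enterocyte and goblet markers found, 5 stayed below 1 RPKM, with Alpi and Fabp2 at 0; the sum was 75.7 to 98.6 RPKM in S487A and 67.5 to 72.3 in S487D and was mostly Tff3, a trefoil peptide gene. The acinar markers Prss1, Cpa1, Cela1, Amy2a3 and Ptf1a were at 0 in every library. The 8 acinar markers summed to 0.246 to 0.626 RPKM in S487A and 1.43 to 1.54 in S487D, mostly Ctrb1 (means 0.401 and 1.42 RPKM). Stromal and endothelial sums reached at most 1.20 and 0.516 RPKM. Leukocyte markers summed to 6.93 to 9.57 RPKM in S487A and 7.95 to 9.45 in S487D, with Ptprc and Itgam at 0. The part of the duct markers, of which 1 fell and 1 rose, in the differences of the 9 genes was not tested.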

How the data were processed

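Messenger RNA of 6 libraries, 3 per group, was sequenced. Per the labels' protocols, Trizol was used to harvest the RNA and the TruSeq RNA kit to prepare libraries; that kit keeps no strand information. Per the submitters' processing notes, the tools were TopHat2 2.0.13, bcl2fastq 2.17 and cutadapt, and the build rn6 (Rnor_6.0); which counter and annotation were used is not given in the sources used here. Per the file headers, the authors deposited RPKM per gene and library, with position and gene length. RPKM times length fell within 0.05 of a whole multiple of 1 step for at least 99.95% of values above 0, which gave reads per gene and library totals.

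The test was limma 3.58.1 (R 4.3.3) on log2(RPKM + 1) for genes that reached 1 RPKM in 3 or more libraries, with an intensity trend, group as the only term, two-sided, and Benjamini-Hochberg adjustment over all 12527 genes at 0.05. Folds of listed genes are on that scale, which understates changes of low genes; ratios of the 9 chosen genes are of mean RPKM. Library pairs of a group differed by more than counting allows (median chi-square 1.36 to 1.88 times its expected value), so no 2 libraries were merged as 1; this does not show that they came from separate cultures. The 9 genes and the 6 lists were chosen with earlier results of these data known. Named genes of a list are up to 3 called rises and 3 called falls of largest size whose mean reached 1 RPKM in S487A or S487D; for likeness, the 2 nearest genes were taken. A named gene of the transcription factor list is not reported here. Symbols were matched as deposited, or through RefSeq synonyms. Alternatives were quantile normalization, median centring, pseudocounts of 0.1 and 0.01, a stricter filter (RPKM 5) or none, no trend, a replicate block, limma voom on recovered reads with trimmed-mean scaling, and each library left out. Python 3.11.15, numpy 2.4.6 and pandas 2.3.3 were used for tables.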

Additional observations from a re-analysis of the deposited data

How the results depend on the processing

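The differences of the 9 chosen genes kept their sign in all 132 values recomputed under 15 alternatives. Of these values, 20 moved by more than the SD between libraries, all with other pseudocounts, voom, quantile normalization or median centring. A changed or absent filter, no trend and the replicate block cannot alter a difference, so part of the 132 values was fixed in advance. The genes were also chosen by this contrast, so the kept signs are only a description. The difference of Muc1 ran from -0.53 to -1.48, and that of Upk3bl, which has no reads in S487A, was 2.32 with a pseudocount of 1 and 8.64 with 0.01, so a fitted fold of Upk3bl has no fixed size. Over all genes, 1940 to 3512 were called higher and 2306 to 3192 lower. Of 443 recomputed values of the 30 named list genes, none changed sign and 16 lost their call, all of them Pkp4, Klf5 or Esrp1. There too, the filters, no trend and the replicate block could not change a sign, and the genes were named by their calls.

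Small list counts moved most. Enterocyte rises numbered 2 and falls 7 with no filter, and rises 0 with a filter at RPKM 5. Mucin list rises numbered 2 after median centring or with voom, and 1 to 2 with a library left out. Surface and desmosome rises numbered 1 with no filter or a filter at RPKM 5, and 1 to 2 with a library left out. Transcription factor rises numbered 6 after quantile normalization, 4 after median centring and 1 with a filter at RPKM 5, no trend or the replicate block, and 0 to 2 with a library left out. Falls of p53 targets numbered 3 with no filter, quantile normalization or median centring, and 3 to 4 with a library left out. The cause was not tested, except that a filter at RPKM 5 tests fewer genes.

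Replicate numbers are shared by the groups in the labels, but deviations of same-numbered libraries correlated at -0.06 to 0.01, so they were not taken as pairs; with the replicate block, 2369 genes were called higher and 2966 lower. The depth limits Muc1, Upk3bl and Pdzk1, which rest on at most 105 reads per library.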
